A study of Mus musculus with 10 samples.

Results

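Acetylation of histone H4 (H4Ac) was compared between mouse embryonic fibroblasts that received Myf5 and the same fibroblasts that received green fluorescent protein (GFP), the control. Both lists of H4Ac peaks came from cells that lack both myogenic genes (genotype MyoD-/-; Myf5-/-), so the GFP cells hold neither factor and the Myf5 cells hold Myf5 only from the lentivirus. The cells were moved to differentiation medium (with insulin and transferrin) 24 h after infection and harvested 20 h later. Per the labels' protocols, H4Ac was measured on native chromatin, digested for 18 min with 15 units of micrococcal nuclease. Regions were the peaks of both lists, joined where a Myf5-cell peak and a GFP-cell peak on the same chromosome shared at least 1 bp. This gave 39598 regions from 63161 peaks, out of 241128 peaks in the 7 lists of the series. A region with peaks of both lists is called retained, a region of the Myf5-cell list alone gained, and a region of the GFP-cell list alone lost. The list of Myf5 peaks (2 replicates joined in 1 list by its title, Myf5-transduced cells, crosslinked and sonicated chromatin) and the matching MyoD lists (MyoD-transduced cells of the same genotype, same times) were used to describe these regions.

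Myf5 is a basic helix-loop-helix transcription factor that commits cells to the skeletal muscle lineage, and MyoD is its close relative that also drives differentiation. Both bind short E-box sequences as partners of E proteins, and both are known to bring histone acetyltransferases to chromatin. Acetylation neutralises lysines of the histone H4 tail and marks promoters and enhancers in use, so an acetylated region that becomes stronger or weaker can be read as a change in the use of that element.

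Each condition had 1 H4Ac list, so the spread between replicates is unknown, no test between conditions could be made and no p-value is given. Intervals in brackets are 95% intervals: exact binomial (Clopper-Pearson) for shares and order-statistic intervals for medians. They cover counting error over regions only, and neighbouring regions are not independent. The strength of a region in a list is the authors' maximum coverage of its strongest peak divided by the authors' coverage cutoff for that peak, and the number of sequenced reads is unknown. The files place no genes, so regions are given by position in the mouse build mm9. The sources used here do not give the promoter that drives the transgenes, the number of cell lines or the control behind each H4Ac list. The mock lists come from GFP cells put through the factor precipitations, per the labels.

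The H4Ac landscape of Myf5 cells kept the outline of that of GFP cells, but the order of strength changed for many regions. Of the 39598 regions, 20911 were retained, 10211 gained and 8476 lost. Gained regions were 32.8% (32.3 to 33.3) of the 31122 regions of Myf5 cells, and lost regions were 28.8% (28.3 to 29.4) of the 29387 regions of GFP cells. Most retained regions, 18648, were made of exactly 1 peak in each list. In 1401 others, neighbouring GFP peaks were joined into 1 peak in Myf5 cells, and in 691 a GFP peak was split. The Myf5-cell regions were also wider: the median summed width of retained regions was 412 bp with GFP and 478 bp with Myf5, and 64.1% were wider with Myf5. The median log2 width ratio was 0.12 (0.11 to 0.12).

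Retained regions were ranked by coverage over cutoff in each list, on a percentile scale of 0 (weakest) to 100 (strongest) over the same 20911 regions, so that list length played no part. The rank shift is the rank in Myf5 cells minus the rank in GFP cells. The middle 50% of shifts lay between -13.4 and 14.6 points, the extremes were -88.9 and 84.7, and the ranks of the 2 lists had a Spearman correlation of 0.656 across regions. A change of at least 20 points was counted as a rise or a fall. By that rule 18.3% of retained regions rose (3834) and 18.0% fell (3766), and these shares are the background for every class below. Strong regions moved little: where coverage was at least 2 times the cutoff in both lists (5283 regions), 2.39% rose and 2.82% fell. A choice of regions that are high in both lists itself limits the shift. The remaining 15628 regions held nearly all of the movement, with 23.7% rising and 23.1% falling.

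**Figure D1:**
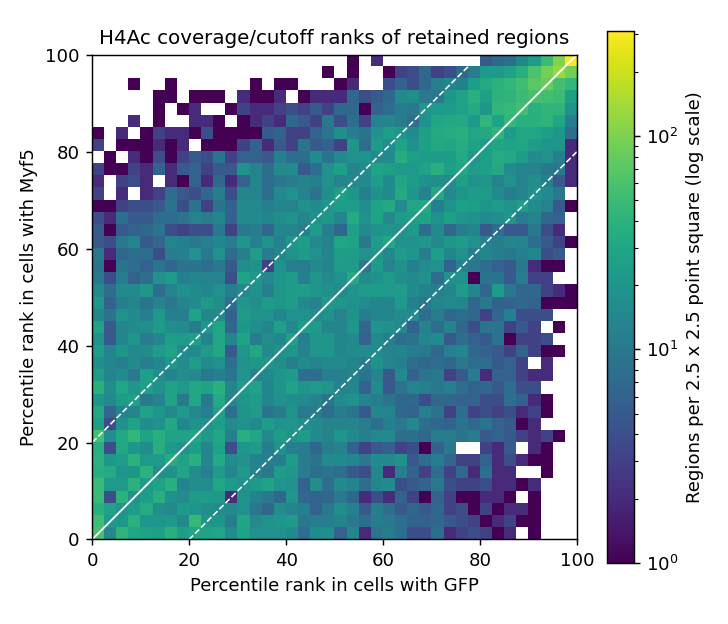
Percentile rank of coverage over cutoff in GFP cells (x axis) and in Myf5 cells (y axis) for the 20911 retained H4Ac regions, as the number of regions per square on a log colour scale. The solid line marks equal rank and the dashed lines a difference of 20 points; 18.3% of regions lie above the upper dashed line and 18.0% below the lower one, and the spread narrows at the strong end.

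GC content ordered the shifts. The authors' files place each peak in 1 of 5 GC bins, and the bin of the GFP peak was used. AT-rich regions moved up and GC-rich regions moved down, in a steady series over the 5 bins. The median shift was 8.22 points (7.41 to 9.39) for the 2661 regions of at most 40% GC and 2.82 (2.27 to 3.38) for the 7325 regions of 40 to 45%. It was -1.25 (-1.64 to -0.67) for the 7948 regions of 45 to 50%, -3.71 (-4.94 to -2.71) for the 2595 regions of 50 to 55% and -6.52 (-9.68 to -4.40) for the 382 regions above 55%. No neighbouring bins overlapped in their intervals except the 2 most GC-rich ones. In the most AT-rich bin 28.9% of regions rose and 7.63% fell, against 18.3% and 18.0% of all retained regions. In the most GC-rich bin 9.16% rose and 34.0% fell. The median coverage over cutoff went from 1.38 with GFP to 1.60 with Myf5 in the most AT-rich bin, and from 1.97 to 1.58 in the most GC-rich one.

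The bins differ in the cutoff by which coverage was divided. The GFP cutoffs were 21, 24, 26, 28 and 30 from the lowest to the highest GC bin, and the Myf5 cutoffs were 20, 24, 27, 29 and 31. Dividing by them therefore favoured AT-rich regions in Myf5 cells. Ranked by coverage alone, the series kept its order but was flatter, with medians of 2.45 (1.94 to 2.74), 1.94 (1.72 to 2.36), -0.19 (-0.56 to 0.09), -1.58 (-2.49 to -1.06) and -2.96 (-5.87 to -1.39) points. The step from the lowest to the highest bin was 14.7 points with the cutoff and 5.40 points without it. Of the most AT-rich regions, 19.8% rose and 8.23% fell by coverage alone.

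A weak region has room only to rise in rank and a strong one only to fall, so the GC series was also read at 3 levels of strength. Regions were split into 3 classes of equal size by the mean of their ranks. In the strong class the medians ran from 8.25 points at most 40% GC to -3.37 above 55%. In the middle class they ran from 16.4 to -18.7, and in the weak class from 3.87 to -8.26. Width changed along the same axis. The median log2 width ratio was 0.25 (0.22 to 0.28) in the most AT-rich bin, 0.09 (0.08 to 0.09) at 45 to 50% GC and -0.01 (-0.04 to 0.01) above 55%, where the median summed width was 514.5 bp with GFP and 504.5 bp with Myf5. AT-rich H4Ac regions were thus both higher in rank and wider in Myf5 cells, while the most GC-rich ones were lower in rank and about as wide. The width of a peak also depends on its cutoff. In the most AT-rich bin the cutoff was 20 with Myf5 and 21 with GFP, and above 55% GC it was 31 and 30. The part of the cutoffs in the width changes was not tested. At strong Myf5 peaks the median log2 width ratio was 0.10 (0.09 to 0.11), below the 0.15 (0.14 to 0.16) of regions without one. In MyoD cells, whose list has narrower peaks, it was -0.05 (-0.06 to -0.03) at strong MyoD peaks and -0.15 (-0.16 to -0.14) without one.

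Cells with MyoD were compared with the same GFP list. Ranked by coverage over cutoff, their median shifts were 0.05 and 0.15 points in the 2 most AT-rich bins, 0.04 at 45 to 50% GC, -1.16 at 50 to 55% and -2.61 above 55%. The background in that comparison was 14.6% rising and 14.7% falling over 22948 retained regions. Ranked by coverage alone, the MyoD medians also ran downwards with GC, from 1.49 points in the lowest bin to -1.87 in the highest. Both comparisons share the GFP list, so each is given by its own values. To hold the regions fixed, the 18725 regions called in all 3 cell populations were ranked among themselves. The 2078 most AT-rich of these had a median shift of 9.78 points (8.87 to 10.7) in Myf5 cells and -1.15 (-2.23 to -0.54) in MyoD cells. This ranking used coverage over cutoff, and the MyoD cutoffs were 19, 21, 22, 24 and 26 from the lowest to the highest GC bin. By coverage alone, over the retained regions of each comparison, the most AT-rich bin had medians of 2.45 with Myf5 and 1.49 with MyoD. The part of the cutoffs in the contrast between the cell populations was not tested. Whether library preparation or sequencing moved with GC was not tested, and with 1 list each it cannot be told apart from the transgene.

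**Figure D2:**
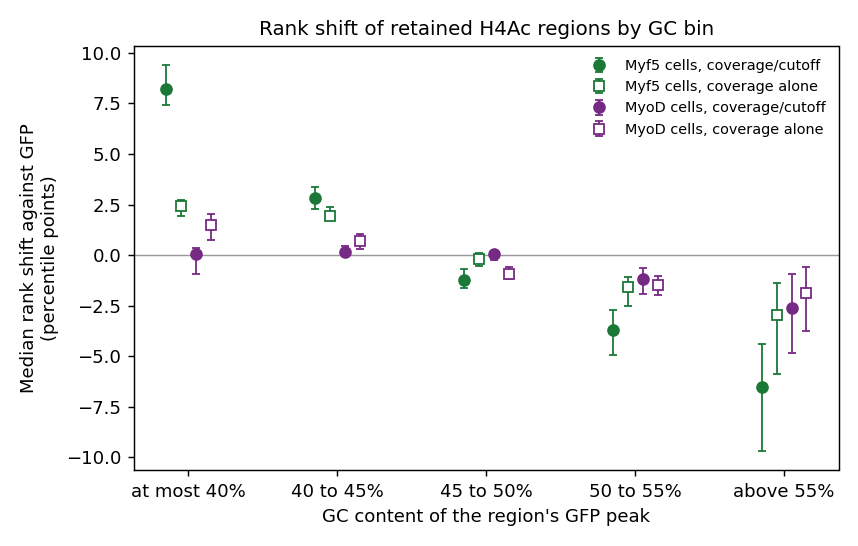
Median rank shift against GFP (percentile points, with 95% order-statistic intervals) of retained H4Ac regions by GC bin, for cells with Myf5 and cells with MyoD, ranked by coverage over cutoff (filled circles) or by coverage alone (open squares). The Myf5 series falls from 8.22 to -6.52 points with the cutoff and from 2.45 to -2.96 without it. In MyoD cells the 3 lowest bins lie between 0.04 and 0.15 when the cutoff is used.

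The direction by width depended on which list set the width. With regions split into 3 classes of equal size by their width in GFP cells, narrow regions (60 to 326 bp) had a median shift of 4.40 points (3.66 to 5.14), with 26.6% rising and 13.3% falling. The middle class (326 to 536 bp) had -0.67 (-1.44 to -0.28), and wide regions (536 to 13000 bp) had -0.05 (-0.36 to 0.16), with 10.3% rising and 17.8% falling. Regions chosen as narrow in the GFP list are, however, also weak there, with a median GFP rank of 25.5 against 72.4 for wide ones, and have room to rise. With classes from the geometric mean of both widths, the order turned: narrow regions had a median of -0.41 (-0.70 to -0.02) and wide ones 1.77 (1.43 to 2.05). In the GC-rich bins narrow regions had the lowest medians. At 50 to 55% GC, the median shift was -11.1 points in narrow regions by that mean width, -4.65 in the middle class and -1.31 in wide regions. Above 55% GC the medians were -17.5, -7.49 and -3.38. In the most AT-rich bin the 3 width classes lay at 7.16, 10.4 and 8.93.

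Myf5 binding did not order the shifts in Myf5 cells. Myf5 peaks were split into 3 classes of equal size by coverage over the whole Myf5 list: weak (up to 42), middle (up to 81) and strong (above 81). Of the retained regions, 10625 (50.8%) overlapped a Myf5 peak, 5011 of them a strong one. The 10286 regions without a Myf5 peak had a median shift of 2.04 points (1.65 to 2.36). Regions at weak, middle and strong Myf5 peaks had medians of -0.60 (-1.34 to 0.03), -0.12 (-0.64 to 0.28) and 0.30 (-0.09 to 0.73). The share rising was 20.4% without a Myf5 peak and 16.7% at a strong one, against 18.3% of all retained regions, and the share falling was 16.3% and 18.6%, against 18.0%. The difference between the medians of regions with a strong peak and with none was -1.74 points (-2.28 to -1.19), and -0.45 when regions were ranked by coverage without the cutoff.

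That difference was smaller within GC bins. In the most AT-rich bin the median was 8.60 (7.04 to 11.3) at strong Myf5 peaks and 8.22 (7.31 to 9.71) without one. At 45 to 50% GC the medians were -0.71 (-1.64 to -0.06) and -0.59 (-1.51 to -0.01), and at 50 to 55% they were -3.46 (-5.34 to -1.93) and -3.67 (-4.99 to -2.15). The gap was wider at 40 to 45% GC, with 2.78 (1.99 to 4.32) at strong peaks and 3.69 (2.94 to 4.55) without one. It was widest above 55%, with -6.94 (-12.5 to -2.59) and -5.40 (-15.2 to -0.79), where the intervals were broad. Weighted over the bins, strong minus none was -0.31 points, and it turned to 0.13 when ranked by coverage without the cutoff. Split by width in GFP cells, the gap was widest in the middle class, with medians of -2.26 (-3.84 to -1.24) at strong peaks and 0.91 (0.02 to 1.69) without one. Narrow regions had 4.50 (2.74 to 5.81) and 5.19 (4.08 to 6.27), and wide regions 0.00 (-0.45 to 0.44) and 0.17 (-0.31 to 0.70).

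Among regions with a Myf5 peak, the median shift was also read by finer classes of Myf5 coverage. In 10 classes of equal size over the Myf5 list, the median shift lay between -1.17 and 0.65 in the 9 weaker classes and at 1.246 (0.41 to 2.20) in the strongest, where 19.3% of 1952 regions rose and 17.8% fell. The medians of all 10 classes lay below the 2.04 of regions without a Myf5 peak. At the 208 regions with a Myf5 peak in the top 1% of the list (coverage above 680), a class added after the values were seen, the median was 2.94 (0.39 to 6.18). There 26.0% (20.1 to 32.5) rose and 16.3% (11.6 to 22.1) fell, against 18.3% and 18.0% of all retained regions. At the 23 regions with a Myf5 peak in the top 0.1% of the list the median was 0.66 (-9.78 to 8.08).

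In MyoD cells the shifts followed MyoD coverage. The 3 classes were taken over each factor's own list, which held 45015 MyoD peaks and 93787 Myf5 peaks. The strong classes of the 2 factors thus differ in size and in the coverage that bounds them. Against the GFP list, retained regions at strong MyoD peaks (coverage above 68) had a median shift of 3.78 points, with 23.7% rising and 9.21% falling against a background of 14.6% and 14.7%. Those without a MyoD peak had a median of -0.83. Strong minus none was 4.62 points (3.78 to 5.45), and 5.08 when weighted over the GC bins. The regions called in all 3 populations allow both cell populations to be read at identical sites. Their 4749 regions at strong Myf5 peaks had a median shift of 0.42 (0.02 to 0.90) in Myf5 cells, with 17.4% rising and 18.6% falling. In MyoD cells the same 4749 regions had a median of 2.18 (1.51 to 2.59), with 19.9% rising and 10.2% falling. At the 2759 regions with a strong MyoD peak, 19.0% rose and 17.8% fell in Myf5 cells, and 24.7% rose and 7.68% fell in MyoD cells. The background over all 18725 of these regions was 18.9% rising and 18.6% falling in Myf5 cells. In MyoD cells it was 13.9% rising and 13.9% falling. The Myf5-cell shares at both kinds of strong peak were thus near their background. The difference between the 2 cell populations could not be tested, with 1 list each and a shared control.

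**Figure D3:**
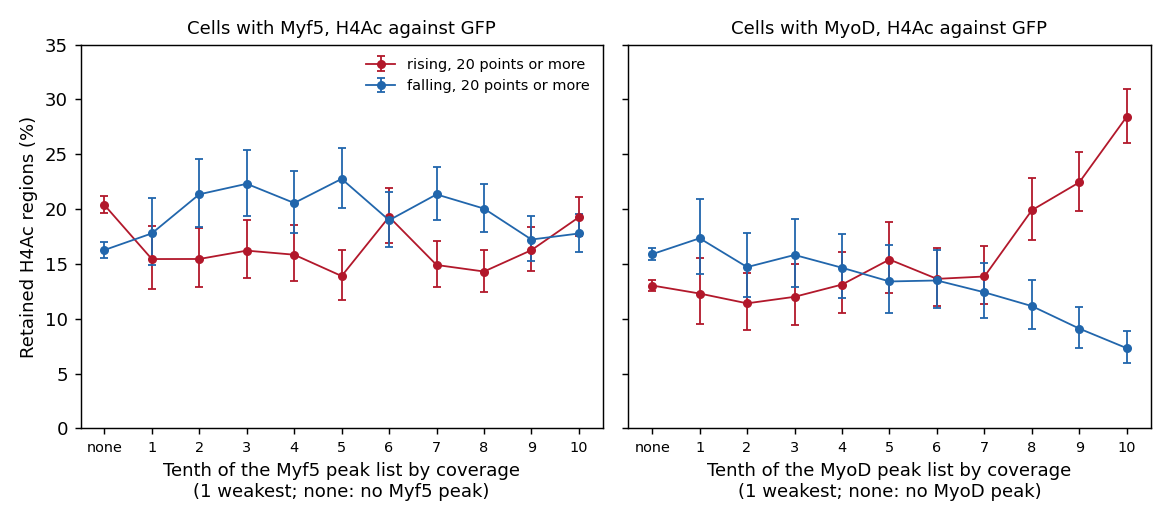
Percentage of retained H4Ac regions that rose or fell by at least 20 rank points against GFP, with exact 95% binomial intervals, by the coverage of the overlapping factor peak in 10 classes of equal size over the factor's list and for regions with none. The left panel shows Myf5 cells and Myf5 peaks, where over the 10 classes the rising share lies between 13.9% and 19.3% and the falling share between 17.2% and 22.8%. The right panel shows MyoD cells and MyoD peaks, where in the strongest class 28.4% rose and 7.31% fell.

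The 5 retained regions with the largest rises were weak in GFP cells. Of these, 4 had no Myf5 peak, and neither had 10286 of all 20911 retained regions. Among the 9674 retained regions with at least 2 times the cutoff in either list, the largest rise was on chromosome 10 at 106920987 to 106921768. Its H4Ac coverage was 26 with GFP (cutoff 24) and 98 with Myf5 (cutoff 24), and its rank went from 9.43 to 94.1. Less than 1 kb away, at 106922489 to 106922980, lay the strongest gained region of all, with a coverage of 118 in Myf5 cells. Both stand apart in their controls. The control coverage in Myf5 cells was 14 and 22, against a list median of 4, with control p-values of 1.61e-05 and 1.23e-09. Both also overlapped peaks of the Myf5 mock precipitation from GFP cells, with mock coverages of 181 and 284, and neither overlapped a Myf5 peak. In MyoD cells, H4Ac coverage there was 29 and 25. An origin of these reads in the lentivirus itself, in place of the chromosome, was not tested.

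The next rises had control coverages of 9, 7, 3 and 2 in Myf5 cells, in the order given here, against the list median of 4. On chromosome 16 at 74093586 to 74094453, H4Ac coverage was 21 with GFP and 56 with Myf5, and the region grew from 115 to 868 bp. The region on chromosome 4 at 116912832 to 116913850 went from 26 to 72 and from 148 to 1019 bp, and it carried a Myf5 peak of coverage 151 and a MyoD peak of 70. On chromosome 17 at 21521244 to 21521841 coverage was 21 and 52, and on the X chromosome at 156045157 to 156045844 it was 24 and 62. Neither of those 2, nor the chromosome 16 region, had a factor peak. Each of these regions thus appeared in GFP cells as a peak at or just over the cutoff and in Myf5 cells as a broader peak above 2.5 times the cutoff.

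Among retained regions at strong Myf5 peaks, the chromosome 4 region rose most. The next were at 40911577 to 40912312 of chromosome 1 (H4Ac coverage 25 with GFP and 66 with Myf5, Myf5 coverage 228), 37539865 to 37540470 of chromosome 6 (26 and 70, Myf5 coverage 107) and 34235604 to 34236072 of chromosome 19 (28 and 85, Myf5 coverage 586). The last was on chromosome 9 at 44581133 to 44581543 (26 and 63, Myf5 coverage 129). All 5 carried a MyoD peak too, with coverages of 70, 78, 58, 265 and 50, and an H4Ac peak in MyoD cells, with coverages of 46, 66, 63, 58 and 35. The coverage of the 3 H4Ac lists is not on a common scale, so no order between Myf5 and MyoD cells is drawn from these values. Of all 5011 retained regions at strong Myf5 peaks, 4749 were called in MyoD cells, so such a call was usual. Of all 18725 regions called in the 3 populations, 12687 had no MyoD peak.

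The 5 largest falls had at least 3 times the cutoff with GFP. Of these, 4 lay in the bin of 45 to 50% GC, which held 38.0% of all retained regions. On chromosome 12 at 35731840 to 35732143, H4Ac coverage was 95 with GFP (cutoff 26) and 27 with Myf5 (cutoff 27), and the width fell from 304 to 141 bp. Coverage was 96 and 28 at 39542552 to 39542842 of chromosome 6, and 84 and 27 at 116077952 to 116078590 of chromosome 7. It was 88 and 28 at 4324527 to 4325064 of chromosome 8, and 87 and 29 at 59740449 to 59740856 of chromosome 10. The Myf5 peaks at the chromosome 12, 6 and 10 regions had coverages of 46, 29 and 59, and the other 2 had none. In MyoD cells the same 5 regions had H4Ac coverages of 58, 62, 50, 29 and 58. All 5 ended at or within 1.04 times the cutoff of the Myf5-cell list.

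The 5 strongest retained regions of Myf5 cells were also at the top in GFP cells, where a percentile rank has almost no room to move. The first, on chromosome 11 from 3052157 to 3065164, had a coverage of 594 (757 with GFP), a width of 13001 bp and a control coverage of 163. It overlapped a Myf5 mock peak, as did the regions on chromosome 8 at 19784556 to 19785423 (575 with Myf5 and 911 with GFP) and on chromosome 17 at 3081190 to 3083390 (546 and 401). The other 2, at 87549189 to 87549409 of chromosome 8 (544 and 551) and 78485471 to 78485730 of chromosome 1 (419 and 484), were narrow and had control coverages of 2 to 6. None of the 5 had a Myf5 peak, and neither had 10286 of all 20911 retained regions. Coverage over cutoff went from 35.04 with GFP to 21.3 with Myf5 at the region starting at 19784556, and from 14.3 to 18.8 at the chromosome 17 region. Control coverage did not enter these ratios. It was 17 with GFP and 11 with Myf5 at the former region and 131 and 122 at the latter, against a list median of 4.

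Neighbouring regions shifted together only over short distances. Between retained regions under 500 bp apart, the shifts had a Pearson correlation of 0.233 over 5015 pairs, and after a rising region 27.1% of the next ones rose and 11.2% fell. The correlation was 0.092 over 1865 pairs at 500 bp to 5 kb and 0.044 over 6378 pairs at 5 to 50 kb. These values are descriptions across pairs of regions that share libraries and GC content. The medians over the 20 chromosomes ran from -0.30 (chromosome 17) to 1.99 (chromosome 10). On chromosome 10 the interval (1.13 to 3.16) lay above that of all retained regions (0.53 to 1.07), and 14.5% (13.0 to 16.3) fell, against 18.0%. The falling share was also low on chromosome 1, at 15.8% (14.2 to 17.6), and the rising share was low on chromosome 8, at 15.1% (13.0 to 17.5).

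Gained and lost regions were weak and narrow. The median coverage over cutoff was 1.15 in gained and 1.15 in lost regions, against 1.67 in Myf5 cells at retained ones, and the median widths were 265, 277 and 412 bp (the last with GFP). Gained regions were AT-rich: 32.9% (32.0 to 33.9) had a GC content of at most 40%, compared with 12.7% of retained and 13.8% of lost regions. Lost regions were GC-rich: 16.9% (16.1 to 17.7) lay at 50 to 55% GC, against 6.23% of gained and 12.4% of retained ones. The cutoffs differed in the same direction, with 20 in Myf5 and 21 in GFP cells at most 40% GC, and 29 and 28 at 50 to 55%. Their part in these GC shares was not tested. Widths of up to 200 bp made up 32.6% of gained, 27.4% of lost and 11.1% of retained regions.

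Beside gained regions the retained ones had moved up, and beside lost regions they had moved down. Of the gained regions, 32.1% lay under 1 kb from a retained region, and the nearest retained regions had a median shift of 6.20 points (5.50 to 7.16), with 27.0% rising and 11.4% falling. Of the lost regions, 34.4% lay under 1 kb from one, with a median shift of -5.53 (-6.54 to -4.56), 10.3% rising and 27.5% falling. Farther away the medians beside gained regions were 3.32 at 1 to 5 kb, 2.02 at 5 to 50 kb and 3.57 (2.43 to 4.06) over 50 kb, with no steady decline. Beside lost regions they were -0.75, -0.31 and 1.19 (0.42 to 2.27). GC content was not held fixed in these values, and gained regions were AT-rich.

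**Figure D4:**
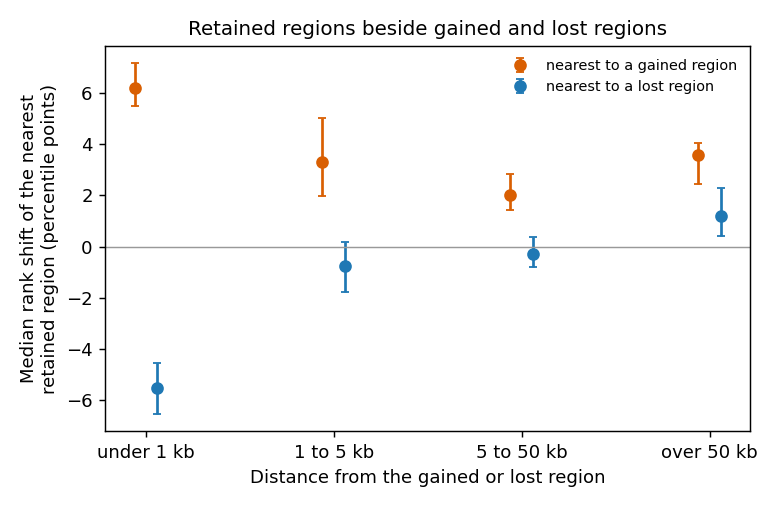
Median rank shift (percentile points, with 95% order-statistic intervals) of the retained region nearest to each gained or lost H4Ac region, by the distance between them. Under 1 kb the medians are 6.20 beside gained and -5.53 beside lost regions; beyond 5 kb they lie between -0.31 and 3.57.

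Myf5 peaks were less frequent at gained than at lost or retained regions, but the order changed within GC bins and with the strength of H4Ac. A Myf5 peak overlapped 35.4% (34.5 to 36.3) of gained, 42.0% (41.0 to 43.1) of lost and 50.8% (50.1 to 51.5) of retained regions. Within the most AT-rich bin the order of gained and lost turned, at 22.2% (20.8 to 23.7) of gained, 15.9% (13.9 to 18.1) of lost and 28.6% (26.9 to 30.4) of retained regions. At 40 to 45% GC gained and lost regions differed by less than their intervals (36.9%, 35.4 to 38.4, and 37.4%, 35.4 to 39.4), as at 45 to 50% (47.2%, 45.1 to 49.3, and 48.3%, 46.6 to 50.1). Retained regions were above both, at 48.1% and 57.3%. Among regions wider than 200 and up to 400 bp the shares were 36.0% of gained, 43.1% of lost and 45.9% of retained regions.

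The Myf5 peaks at gained regions were the stronger ones. Their median coverage was 93, against 72 at lost and 76 at retained regions. Strong Myf5 peaks overlapped 19.3% (18.5 to 20.0) of gained and 19.1% (18.2 to 19.9) of lost regions. Both shares lay below the 24.0% (23.4 to 24.5) of retained regions. By GC bin they overlapped 11.5% (10.4 to 12.6) of gained and 6.24% (4.93 to 7.79) of lost regions at most 40% GC, and 20.7% (19.5 to 22.0) and 16.1% (14.6 to 17.6) at 40 to 45%. At 45 to 50% GC they overlapped 24.99% (23.2 to 26.8) and 21.6% (20.2 to 23.1). Retained regions were not below gained ones in these bins. Their shares, from the lowest GC, were 12.5% (11.3 to 13.8), 22.1% (21.2 to 23.1) and 26.7% (25.8 to 27.7). Peaks in the top 1% of the Myf5 list lay at 1.44% (1.22 to 1.69) of gained, 0.72% (0.55 to 0.92) of lost and 0.99% (0.86 to 1.14) of retained regions. In MyoD cells 33% of regions were gained and 24.5% lost against the same GFP list. Strong MyoD peaks, from a list of 45015 peaks against 93787 for Myf5, overlapped 23.9% (23.1 to 24.7) of gained and 5.55% (5.04 to 6.09) of lost regions. The share of retained regions in that comparison was 14.5% (14.1 to 15.0).

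**Figure D5:**
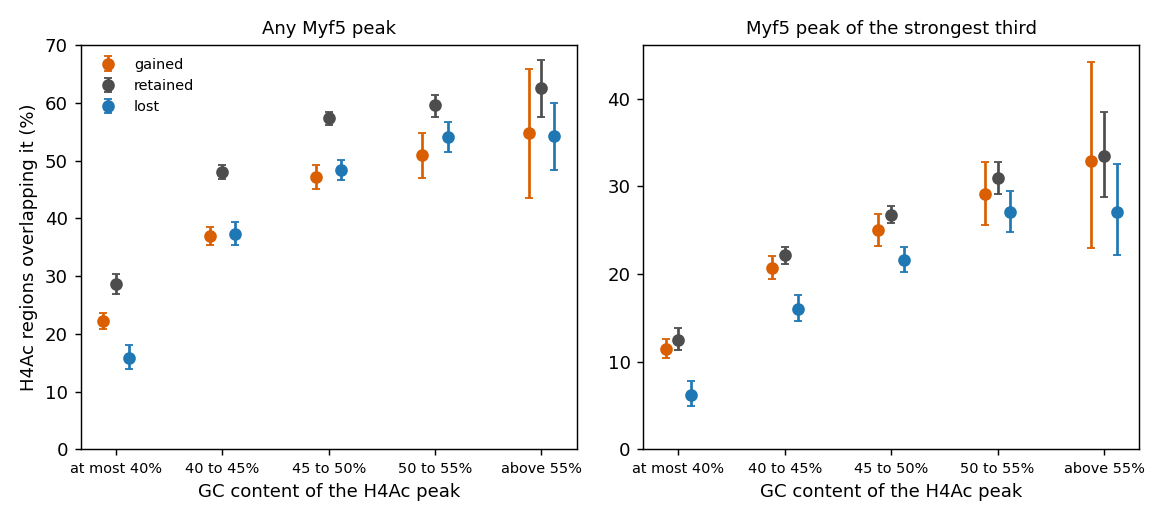
Percentage of gained, retained and lost H4Ac regions that overlap any Myf5 peak (left) or a strong Myf5 peak (right), by GC bin, with exact 95% binomial intervals. Retained regions lie highest for any peak, gained and lost regions overlap in their intervals at 40 to 50% GC on the left, and gained regions lie above lost ones in the 3 most AT-rich bins on the right.

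Among regions with H4Ac of at least 2 times the cutoff, the share of gained regions at Myf5 peaks was no longer below that of retained ones. At a minimum of 1.5 times the cutoff it still was, at 47.8% (44.7 to 51.0) of gained and 54.2% (53.3 to 55.1) of retained regions. Where H4Ac reached 2 times the cutoff, a Myf5 peak of any strength overlapped 61.2% (52.5 to 69.3) of gained, 62.1% (56.3 to 67.6) of lost and 57.5% (56.4 to 58.6) of retained regions. At the same minimum, 41.0% (32.7 to 49.7) of 139 gained regions overlapped a strong Myf5 peak, against 28.2% (23.1 to 33.7) of 298 lost and 27.2% (26.2 to 28.2) of 7407 retained regions, so the intervals of gained and lost regions overlapped. A minimum of 1.5 times the cutoff gave 27.4% (24.7 to 30.3) of 991 gained, 24.1% (21.8 to 26.6) of lost and 25.6% (24.9 to 26.4) of retained regions, with overlapping intervals throughout. At 2 times the cutoff the top 1% of Myf5 peaks lay at 8.63% (4.54 to 14.6), 1.34% (0.37 to 3.40) and 1.30% (1.05 to 1.58) of them. In the bin of 40 to 45% GC, 44.8% (31.7 to 58.5) of 58 such gained regions and 25.2% (23.6 to 26.8) of 2775 retained ones had a strong Myf5 peak. In the most AT-rich bin it was 38.0% (24.7 to 52.8) of 50 and 16.9% (14.5 to 19.6) of 885.

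After the chromosome 10 region, the strongest gained regions each carried peaks of both factors and had control coverages of 3 to 9. Of all gained regions, 35.4% overlapped a Myf5 peak, and of those with at least 2 times the cutoff 61.2% did. The one on chromosome 12 at 11228556 to 11229294 had an H4Ac coverage of 89 in Myf5 cells and 97 in MyoD cells, with a Myf5 coverage of 921 and a MyoD coverage of 260. The regions on chromosome 17 at 48139110 to 48139489 (H4Ac 90 and 123, Myf5 297) and on chromosome 13 at 30749002 to 30749446 (H4Ac 79 and 98, Myf5 851) followed. The last was on chromosome 17 at 64854124 to 64854773 (H4Ac 77 and 72, Myf5 365). All 4 were thus acetylated in MyoD cells as well. The share of all gained regions called in MyoD cells is not given here, so this count has no background.

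The 5 strongest lost regions were still called in MyoD cells, and 3 had no factor peak. The share of all lost regions called in MyoD cells is not given here. Of all lost regions, 42.0% overlapped a Myf5 peak, and of those with at least 2 times the cutoff 62.1% did. The region at 182656188 to 182656774 of chromosome 1 had an H4Ac coverage of 104 in GFP cells and 32 in MyoD cells and a Myf5 peak of coverage 71. No factor peak overlapped the regions at 55362935 to 55363480 of chromosome 4 (94 with GFP and 49 with MyoD), 57539980 to 57540276 of chromosome 3 (83 and 46) or 31088442 to 31088713 of chromosome 9 (89 and 35). The fifth, at 93294929 to 93295371 of chromosome 1 (88 and 36), had a Myf5 peak of coverage 263 and a MyoD peak of 134. That site was thus lost from the H4Ac list at a strong Myf5 peak.

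The distance between H4Ac and Myf5 peaks was slightly larger in Myf5 cells. The regions were chosen for their overlap with a Myf5 peak, so the distance itself shows no offset and is given only for its change. Over 4200 retained regions with 1 peak in each list and 1 strong Myf5 peak, the median distance between the centres of the H4Ac peak and the Myf5 peak was 306.5 bp with GFP and 324 bp with Myf5. It grew in 56.1% (54.6 to 57.6) and shrank in 42.9% (41.4 to 44.4) of regions, with a median change of 5.0 bp (4.0 to 6.5). At 2086 weak Myf5 peaks it grew in 53.9% (51.8 to 56.1), with a median change of 3.0 bp (1.5 to 5.5). In MyoD cells at strong MyoD peaks the median change was -0.5 bp (-1.5 to 0.5). The wider peaks of the Myf5-cell list move with this change, and their part in it was not tested.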

How the data were processed

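CASAVA 1.8.2 and BWA 0.7.5 appear in the submitters' processing notes, which also list mm9 and hg19 and give neither a role. Positions were read as mouse mm9 and not converted. No peak caller is named in the sources used here. Each deposited peak carries, as its file header shows, the authors' maximum coverage (a signal with no scaling named) and a coverage cutoff per GC bin. The deposited p-value per peak was not used. Control p-values, some above 1, served only to mark regions at 1e-05 or lower, and 1 placeholder control coverage was treated as missing.

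Peaks of 2 lists were joined by overlap of at least 1 bp. Tied regions shared their mean rank, and a region's Myf5 value is the highest coverage of its overlapping Myf5 peaks. The overlap and ranking steps were tested on simulated lists. Regions were named by rule: the 5 largest rises and falls (coverage at least 2 times the cutoff in either list), the 5 strongest retained, gained and lost regions, and the 5 largest rises at strong Myf5 peaks. The parts of that rule on genes were not run, since no annotation of mm9 was used here. Regions, classes and named members were chosen with earlier results of these data known. The 3 inputs were not analysed here. Analyses ran in Python 3.11.15 with pandas 2.3.3, numpy 2.4.6 and scipy 1.17.1, and figures were drawn with matplotlib 3.10.9.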

Additional observations from a re-analysis of the deposited data

Results flagged for a closer look

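The contrast between strong factor peaks and regions with none had opposite signs in the 2 cell populations. The median shift at strong peaks minus that at regions with none was -1.74 points in Myf5 cells at Myf5 peaks. In MyoD cells at MyoD peaks it was 4.62 points. The medians at strong peaks themselves were 0.30 (-0.09 to 0.73) and 3.78 points, and those without a peak 2.04 and -0.83. The Myf5 list held 93787 peaks and the MyoD list 45015, so their strong classes differ in size. With 1 H4Ac list each the difference was not tested. The Myf5 contrast depends in sign on the ranking. Weighted over GC bins it was -0.31, by coverage without the cutoff -0.45, and with both 0.13. That last value has the sign of the MyoD one (5.08 weighted over GC bins). Control coverage, which entered no comparison, was high at 2 gained regions: 22 at the chromosome 10 region at 106922489 to 106922980 and 17 on chromosome 8 at 19893452 to 19894084, against a list median of 4. A lost region on chromosome 1 at 90158129 to 90162087 had 27 in GFP cells, with a control p-value of 2.98e-12.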

How the results depend on the processing

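Of 116 values recomputed under alternatives, 72 moved by less than their interval or by less than 1.5 times for counts, 41 moved further and 3 reversed. In all, 5 changed sign: those 3 and the GC-weighted value of strong Myf5 peaks minus none under a pair of settings. Some of the 72 could not move under their setting, such as region counts, widths and shares at Myf5 peaks when only the ranking changed. Ranked by coverage without the cutoff, 16.5% of retained regions rose and 16.4% fell, the lowest minus the highest GC bin was 5.40 points, narrow minus wide 2.19 and strong Myf5 peaks minus none -0.45, and 0.13 weighted over GC bins against -0.31. With a stricter minimum of coverage over cutoff for every peak, 13691 regions were retained, 5979 gained and 5249 lost, 19.2% rose and 18.8% fell, narrow minus wide was 1.57, and Myf5 peaks lay at 41.5% of gained, 54.5% of retained and 50.1% of lost regions. With ranks within each whole list, 19.6% rose and 15.6% fell, narrow minus wide was 7.03, and the median shift at 45 to 50% GC reversed to 0.00603. With only regions of exactly 1 peak per list, narrow minus wide was 5.44, Myf5 peaks lay at 50.1% of retained regions and the median log2 width ratio was 0.11. With MyoD peaks in place of Myf5 peaks, strong minus none was -0.51, and 1.04 weighted over GC bins, again of the other sign. Between neighbours up to 50 kb apart the Pearson correlation of shifts was 0.124, against 0.200 up to 5 kb.

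The other 2 settings were chosen after seeing the data. Where both lists had at least 1.5 times the cutoff, 9.57% rose and 9.44% fell, the GC contrast was 9.83 points, strong Myf5 peaks minus none was -0.92, and narrow minus wide reversed to -0.72. With width classes from the geometric mean of both lists, narrow minus wide reversed to -2.17. The cause of these changes was not tested. No paired analysis was possible because each condition had 1 H4Ac list. Sequencing depth is unknown, and its part in the gained and lost calls, whose median coverage was 1.15 times the cutoff, was not tested.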
